A study of Mus musculus with 4 samples.

Results

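The deoxynucleotide synthesis enzymes are 5 genes, Rrm1, Rrm2, Rrm2b, Tyms and Tk1, chosen by name as suppliers of DNA precursors. All 5 had values in every library, among 9244 genes with library values. RNA was sequenced from haematopoietic stem cells (HSCs) of C57BL/6 mice aged 8 to 12 weeks. There were 2 libraries of Sin3B KO cells and 2 of WT cells, and the study asked which genes Sin3B, a scaffold of histone deacetylase complexes, regulates in HSCs. The labels name no Cre driver, allele or inducing agent for the knockout and no treatment of either group. They give the sort gate as LSK (lineage-negative, Sca-1-positive, Kit-positive) without CD34 and Flk2. They do not say whether the libraries of a genotype came from separate animals, so a p-value here speaks only of library-to-library spread, possibly of technical origin.

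Cells make deoxynucleotides by a de novo and a salvage route. In the de novo route ribonucleotide reductase removes the 2' hydroxyl group of ribonucleoside diphosphates. Its large subunit, encoded by Rrm1, holds the catalytic and allosteric sites. Its small subunit carries the radical that drives the reaction and comes in alternative forms. Rrm2 encodes the form of cycling cells, which is degraded late in the cell cycle, and Rrm2b the p53-inducible form, which serves DNA repair and mitochondrial DNA in resting cells. Thymidylate synthase, encoded by Tyms, converts dUMP to dTMP with a folate cofactor. Thymidine kinase 1, encoded by Tk1, returns thymidine to the pool. Most adult HSCs are out of cycle, and the S phase forms of these enzymes are known as genes of dividing cells.

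The promoters of Rrm1 and Rrm2, whose mean values were higher in Sin3B KO cells, and of Tyms and Tk1 are shown so that their sequence features can be read beside the values. They are the 250 bases before each start in the RefSeq table for GRCm38.p6, at chr7:102441445-102441694 (plus strand) for Rrm1, chr12:24708004-24708253 (plus) for Rrm2, chr5:30073626-30073875 (minus) for Tyms and chr11:117826015-117826264 (minus) for Tk1. Rrm2b is not shown. Capitals mark matches on either strand to the E2F half-sites TCCCGC and TGGCGC, the CCAAT box, the cell cycle element TTTGAA and the YY1-type element ATGGCGGC, none of which overlap here. E2F factors and the CCAAT-binding factor NF-Y act at many S phase genes, and YY1 is known to bind this element in the mouse Rrm1 promoter. The YY1-type element was chosen after the sequences were read.
Rrm1: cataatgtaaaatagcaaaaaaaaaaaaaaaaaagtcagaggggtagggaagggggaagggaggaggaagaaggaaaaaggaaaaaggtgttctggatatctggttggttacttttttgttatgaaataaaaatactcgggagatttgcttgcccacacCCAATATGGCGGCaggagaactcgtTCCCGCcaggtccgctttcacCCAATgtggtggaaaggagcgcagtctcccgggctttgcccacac
Rrm2: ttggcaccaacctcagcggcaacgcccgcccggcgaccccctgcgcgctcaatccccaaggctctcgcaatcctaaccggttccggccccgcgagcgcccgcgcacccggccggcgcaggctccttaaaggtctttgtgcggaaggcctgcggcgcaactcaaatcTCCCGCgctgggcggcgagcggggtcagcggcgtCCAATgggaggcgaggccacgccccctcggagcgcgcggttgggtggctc
Tyms: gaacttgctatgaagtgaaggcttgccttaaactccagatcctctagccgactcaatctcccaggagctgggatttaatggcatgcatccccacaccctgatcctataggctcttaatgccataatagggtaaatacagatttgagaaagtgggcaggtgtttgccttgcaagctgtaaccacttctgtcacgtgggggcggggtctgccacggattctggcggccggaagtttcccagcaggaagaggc
Tk1: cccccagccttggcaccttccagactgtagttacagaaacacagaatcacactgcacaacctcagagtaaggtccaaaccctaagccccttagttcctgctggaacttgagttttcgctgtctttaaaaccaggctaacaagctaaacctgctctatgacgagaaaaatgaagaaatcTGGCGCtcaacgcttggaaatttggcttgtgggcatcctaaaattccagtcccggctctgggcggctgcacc
The Rrm1 and Rrm2 windows each held the half-site TCCCGC, which 16.9% of the 32851 promoters in the table held, and the Tk1 window held TGGCGC, which 9.76% held. The match began 66 bases before the start in Rrm1, 84 in Rrm2 and 72 in Tk1. A CCAAT box, found in 33.8% of promoters, began 91 and 45 bases before the start in Rrm1 and 50 before it in Rrm2. The YY1-type element, found in 1.03% of promoters, began 86 bases before the start of Rrm1, directly after a CCAAT box. TTTGAA, found in 16.0% of promoters, was in none of these 4 windows, and the Tyms window held none of the 5 motifs. A match describes letters, not binding, and its absence says nothing of a factor.

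The libraries held between 9950979 and 13700630 reads in the listed genes. Sin3b, the targeted gene, had 755.4 and 646.5 normalised reads in Sin3B KO cells, against 1522 and 1825 in WT cells (log2 fold change -1.25, SE 0.22), and its reads were thus reduced but not lost. Of 15 HSC markers, 15 had values in every library, with Kit between 19845 and 20868 in Sin3B KO and between 17785 and 22329 in WT cells. Of the 15, 12 had a log2 fold change above 0, where 53.4% of all genes had. With libraries scaled to the same total of listed reads it was 9 of 15, against 4090 of 9244 genes. The count ran from 7 to 11 with 1 library left out. The KO lay above WT without overlap in 2 of the 15 and below it in 2, where 24.7% and 19.4% of all genes did. The 2 above were Ly6a and Tek. Ly6a was at 2699 and 2812 in Sin3B KO cells, against 2343 and 2628 in WT cells. Tek was at 1269 and 1419 in Sin3B KO cells, against 1087 and 1080 in WT cells. The 2 below were Fgd5 and Hlf. Fgd5 was at 257 and 643 in Sin3B KO cells, against 710 and 1240 in WT cells. Hlf was at 5353 and 7054 in Sin3B KO cells, against 8877 and 7805 in WT cells. Cd34, which the gate selects against, was nevertheless read at 5623 and 5133 in Sin3B KO cells, against 6508 and 4945 in WT cells. Flt3, which encodes the Flk2 of the gate, was read at 830 and 354 in Sin3B KO cells, against 1170 and 372 in WT cells. The 12 myeloid markers summed to 53335 and 24388 in Sin3B KO cells, against 77561 and 14714 in WT cells, and the 6 measured B lineage markers to 4465 and 1703, against 3809 and 1503, so libraries numbered 1 were high in both genotypes. In bulk RNA, a change in the share of cells of a kind and a change in RNA per cell cannot be told apart.

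Rrm1 had the clearest separation of the genotypes among the 5 genes. It was at 5593 and 5048 normalised reads in Sin3B KO libraries 1 and 2, against 3215 and 3015 in WT libraries 1 and 2, from 2820 or more reads in each. The genotypes did not overlap, and the gap between the genotypes was wider than the spread within either. The means were 5321 ± 385 in Sin3B KO and 3115 ± 142 in WT cells (SD, n = 2 each), a 1.71-fold higher level in the KO with a 95% interval of 1.28 to 2.28. On the log2 scale the difference was 0.77 (SE 0.18), which ranked 29th of 9244 genes by p (limma, unadjusted p = 0.0025) and missed the threshold over all genes (Benjamini-Hochberg adjusted p = 0.548). Of the 5 members 0 passed, where limma called 0% of all genes and 8.91% were under an unadjusted p of 0.05. In the authors' deposited table Rrm1 ranked 19th of 9796 genes by p and passed, with a log2 fold change of 0.68 (SE 0.17) and an adjusted p of 0.0334. It was the only member among the 0.316% of genes called at an adjusted p under 0.05 in the authors' deposited table. Rrm1 stayed higher by between 0.70 and 0.84 on the log2 scale with any 1 library left out.

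Rrm2 differed as much between the numbered libraries as between genotypes. It was at 3992 and 2144 in Sin3B KO libraries 1 and 2, against 2374 and 1472 in WT libraries 1 and 2. KO library 2 lay below WT library 1, so the groups overlapped. The means were 3068 ± 1307 in Sin3B KO and 1923 ± 638 in WT cells (SD, n = 2 each), a 1.56-fold difference with a 95% interval of 0.93 to 2.63 and a log2 fold change of 0.65 (SE 0.33, limma, Benjamini-Hochberg adjusted p = 0.550). Between libraries with the same number the KO value was higher by 0.75 for number 1 and by 0.54 for number 2, on the log2 scale. Library 1 exceeded library 2 by 0.90 in Sin3B KO and by 0.69 in WT cells. The estimate was 0.20 without KO library 1, 0.30 without WT library 2, 0.99 without WT library 1 and 1.09 without KO library 2. The authors' deposited table gives Rrm2 a log2 fold change of 0.50 (SE 0.24) and an adjusted p of 0.492. Rrm1 and Rrm2 are the 2 of 5 members under an unadjusted p of 0.05 in the authors' deposited table, as are 9.5% of all genes there.

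Rrm2b, the small subunit of resting and damaged cells, was the least abundant of the 5. It was at 189.3 and 220.3 in Sin3B KO libraries 1 and 2, against 401.3 and 170.1 in WT libraries 1 and 2, from between 172 and 352 reads. WT library 1 stood high and the other 3 libraries lay close together, so the groups overlapped. The log2 fold change was -0.35 with a 95% interval of -1.40 to 0.69 (limma, Benjamini-Hochberg adjusted p = 0.779). Without WT library 1 the direction turned, to 0.26. In the authors' deposited table it was -0.25 (SE 0.27).

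**Figure D1:**
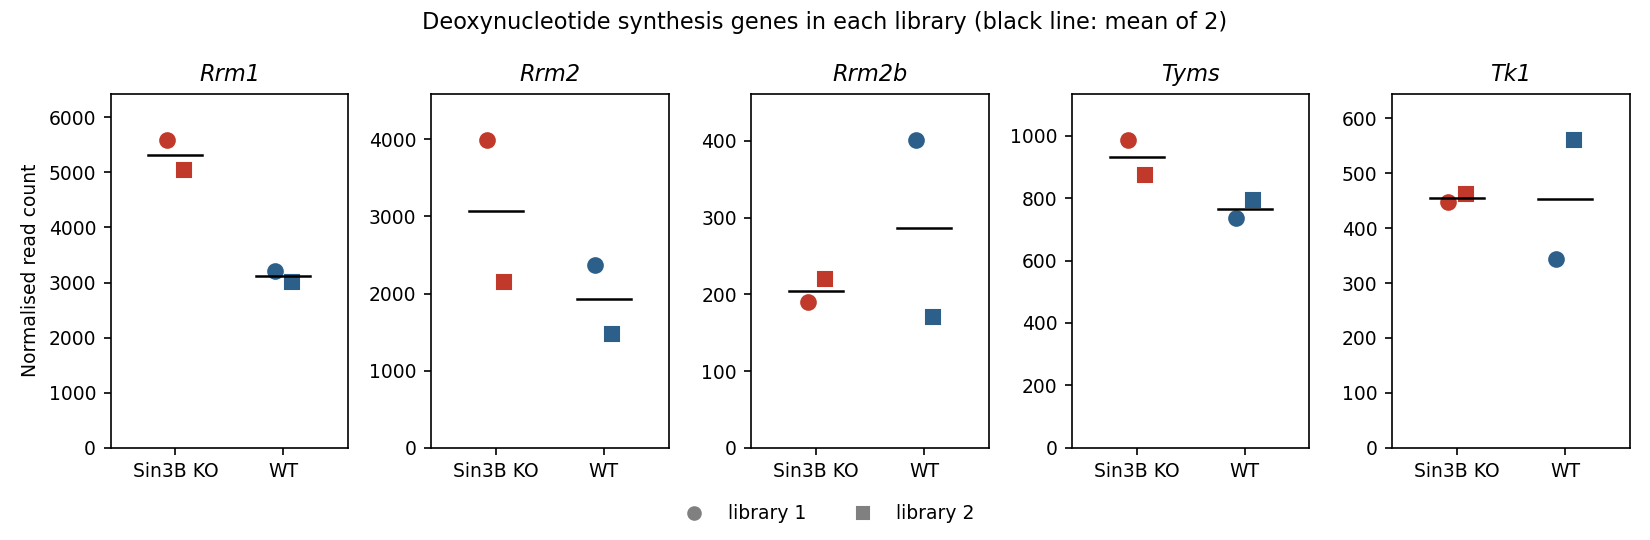
Normalised read count (linear axis from 0) of each of the 5 genes in Sin3B KO and WT cells, with circles for library 1, squares for library 2 and a black line for the mean of 2 libraries. Rrm1 and Tyms separate the genotypes, Rrm2 is higher in library 1 of both genotypes, Rrm2b is high in WT library 1 (401.3), and both KO values of Tk1 lie between its WT values.

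Thymidylate synthase is listed beside a near-identical pseudogene. Tyms was at 987 and 874 in Sin3B KO libraries 1 and 2, against 738 and 795 in WT libraries 1 and 2. The genotypes did not overlap, at 931 ± 80.0 and 766 ± 40.7 (SD, n = 2 each), but the difference of 0.28 on the log2 scale had a 95% interval of -0.22 to 0.78 (limma, Benjamini-Hochberg adjusted p = 0.656). Of the 5 genes 2, Rrm1 and Tyms, were higher in the KO without overlap, as were 24.7% of all genes. The table also lists Tyms.ps, annotated in GENCODE M21 as a processed pseudogene (Tyms-ps), whose 915-base transcript matched the Tyms transcript at 97.3% of 901 aligned bases. It was given more reads than Tyms (totals, not per length), at 1433 and 1324 in Sin3B KO cells, against 786 and 1088 in WT cells (log2 fold change 0.57, SE 0.23, limma, Benjamini-Hochberg adjusted p = 0.548). The pseudogene held 59.2% and 60.2% of the summed reads in Sin3B KO cells, against 51.6% and 57.8% in WT cells. How the authors assigned reads that match both is not stated, so the Tyms level is uncertain. Their sum was 2420.1 and 2198 in Sin3B KO cells, against 1523 and 1883 in WT cells, again without overlap.

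Tk1 showed no separation of the genotypes. It was at 448 and 462 in Sin3B KO libraries 1 and 2, against 344 and 561 in WT libraries 1 and 2. Both KO values lay between the WT values, and the means were 455 ± 9.94 in Sin3B KO and 453 ± 153 in WT cells (SD, n = 2 each). The log2 fold change of 0.05 had a 95% interval of -0.65 to 0.75 (limma, Benjamini-Hochberg adjusted p = 0.962), so differences up to 1.68-fold in favour of the KO lie within it. Its sign was not fixed, at -0.035 with libraries scaled to the same total of listed reads and -0.30 without WT library 1. In the authors' deposited table it was 0.0045.

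**Figure D2:**
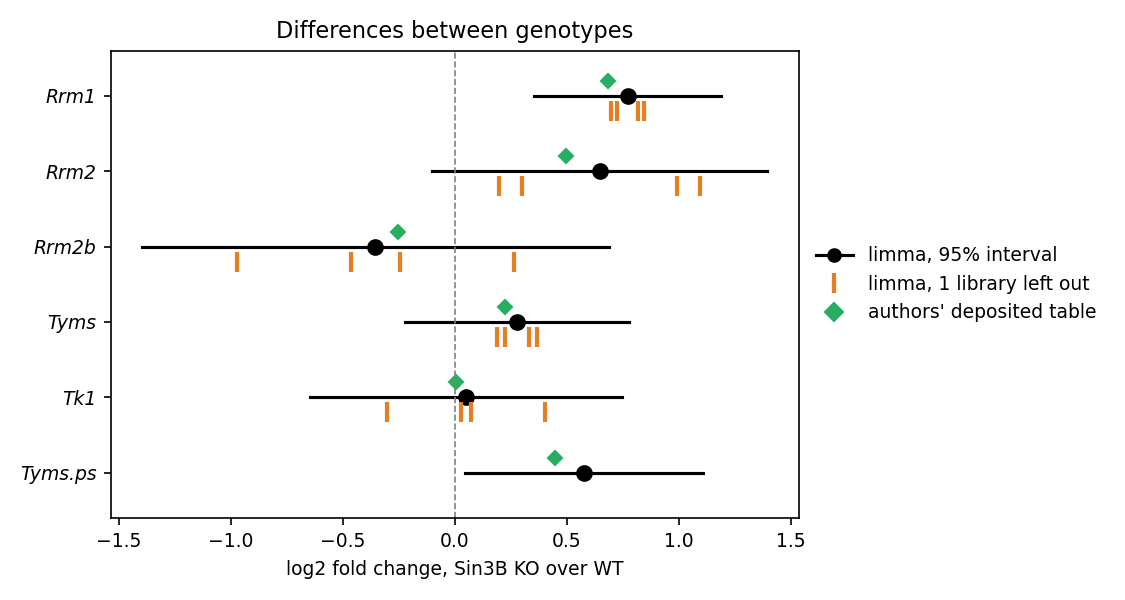
Log2 fold change of Sin3B KO over WT for the 5 genes and the Tyms.ps pseudogene, with limma estimates and 95% intervals (black), estimates with 1 library left out (orange ticks, 5 genes only) and values of the authors' deposited table (green diamonds). The interval of Rrm1 (0.35 to 1.19) lies above 0, those of the other 4 enzymes include 0, and the left-out estimates of Rrm2b and Tk1 fall on both sides of 0.

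Per kilobase of exon, both S phase reductase genes were abundant. Rrm2 had 1399 ± 596 normalised reads per kilobase in Sin3B KO and 877 ± 291 in WT cells (SD, n = 2 each), and Rrm1 had 1331 ± 96.3 and 779 ± 35.5. Their order did not hold beyond the spread, since Rrm2 was above Rrm1 in both libraries numbered 1 and below it in both numbered 2. Next came Tk1 at 316 ± 6.90 in Sin3B KO and 314 ± 106 in WT cells and Tyms at 294 ± 25.3 and 242 ± 12.9, which also overlapped. Rrm2b was lowest, at 44.9 ± 4.79 in Sin3B KO and 62.6 ± 35.8 in WT cells, below the other 4 in every library. By the mean level per kilobase over the 4 libraries, Rrm2 and Rrm1 stood at the 91.1 and 90.2 percentiles of 9000 genes with an exon length, Tk1 at 62.2, Tyms at 57.2 and Rrm2b at 10.8. Lengths came from a GRCm38 annotation and not from the annotation the authors counted with.

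Within a library, the ratio of subunit genes does not depend on the library scaling. The log2 ratio of Rrm1 to Rrm2 was 0.49 and 1.24 in Sin3B KO libraries 1 and 2, against 0.44 and 1.03 in WT libraries 1 and 2. The ratio followed the library number in both genotypes, and the difference of 0.12 between genotype means was within the spread (exact permutation test, two-sided, p = 0.667). The log2 ratio of Rrm2 to Rrm2b was 4.39 and 3.28 in Sin3B KO libraries, against 2.56 and 3.11 in WT libraries. Both KO ratios lay above both WT ratios, by 1.001 on average (exact permutation test, two-sided, p = 0.333, the smallest that 2 against 2 allows). Per kilobase, Rrm2 exceeded Rrm2b 43.9-fold and 20.2-fold in Sin3B KO libraries, against 12.3-fold and 18.0-fold in WT libraries. KO library 2 and WT library 2 were close, and leaving out KO library 1 brought the difference to 0.44.

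**Figure D3:**
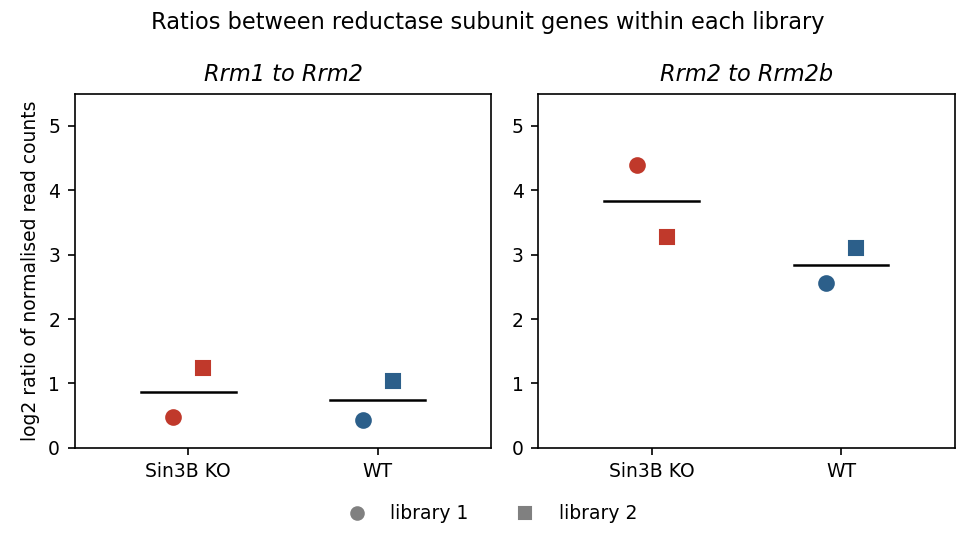
Log2 ratio of normalised read counts of Rrm1 to Rrm2 and of Rrm2 to Rrm2b in each Sin3B KO and WT library, with circles for library 1, squares for library 2 and a black line for the mean. The first ratio follows the library number in both genotypes (0.49 and 0.44 in library 1), while for the second both KO values (4.39 and 3.28) lie above both WT values.

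Markers of cycling cells varied beside the reductase genes. The 22 S phase markers, among them the Mcm helicase genes and Fen1, summed to 63878 and 49838 in Sin3B KO cells, against 39847 and 46203 in WT cells. These sums did not overlap between the genotypes, and their order of libraries was not that of Rrm2. A log2 fold change above 0 was found in 18 of 22, where 53.4% of all genes had one. With libraries scaled to the same total of listed reads it was 16 of 22, against 4090 of 9244 genes, and without Sin3B KO library 1 also 16. The KO lay above WT without overlap in 9 and below it in 2, Pcna and Cdt1, where 24.7% and 19.4% of all genes did. Pcna was at 438 and 416 in Sin3B KO cells, against 475 and 462 in WT cells, and Cdt1 at 469 and 274, against 506 and 501. The 20 markers of G2 and mitosis summed to 17673 and 11656 in Sin3B KO cells, against 13360.3 and 8678 in WT cells, in the same order of libraries as Rrm2. Of these 20, 18 had a log2 fold change above 0, and 16 with equal totals. With 1 library left out the count ran from 12 (without WT library 2) to 19. The KO lay above WT without overlap in 6 of the 20 and below it in 0, where 24.7% and 19.4% of all genes did. None of the 42 markers was at 0 in any library. By limma 0 of them passed over all genes. Under an unadjusted p of 0.05 were 4 of 22 S phase and 5 of 20 mitotic markers, all higher in the KO, where 4.97% of all genes were. The authors' deposited table calls 2 of the S phase markers, where it calls 0.316% of its genes. As a share of the summed S phase markers, Rrm1 made up 8.76% and 10.1% in Sin3B KO cells, against 8.07% and 6.52% in WT cells, so the genotypes did not overlap. As a share of the summed G2 and mitosis markers Rrm1 was at 31.6% and 43.3% in Sin3B KO cells, against 24.1% and 34.7% in WT cells, where they did. Rrm2 as a share of the summed G2 and mitosis markers was 22.6% and 18.4% in Sin3B KO cells, against 17.8% and 17.0% in WT cells, without overlap. As a share of the S phase markers it was at 6.25% and 4.30% in Sin3B KO cells, against 5.96% and 3.19% in WT cells, and overlapped. Tyms as a share of the S phase markers was 1.55% and 1.75% in Sin3B KO cells, against 1.85% and 1.72% in WT cells, so its groups overlapped on that scale. Of 13 erythroid markers 9 were measured, summing to 77092 and 61906 in Sin3B KO cells, against 57773 and 56705 in WT cells. Most of each sum was Car2, at 58231 and 54321 in Sin3B KO cells, against 49011 and 51127 in WT cells, while Alas2 was at 555 and 37.5 in Sin3B KO cells, against 756 and 7.91 in WT cells. Slc4a1 was at 0 in WT library 2. Gata1 was at 3144 and 1842 in Sin3B KO cells, against 1004 and 1063 in WT cells, and Car1 at 10488 and 3984, against 2847 and 3353. Of the 9 erythroid markers 9 had a log2 fold change above 0, and 4 were higher in the KO without overlap, where 53.4% and 24.7% of all genes were. The count above 0 was 6 without Sin3B KO library 1 and 5 without WT library 2. By limma 0 of the 9 passed. Under an unadjusted p of 0.05 were 2, Gata1 and Car1, both higher in the KO, where 4.97% of all genes were. The authors' deposited table calls 1 of the 9, where it calls 0.316% of its genes. The part of cycling and of lineage-committed cells in the values of the 5 genes was not tested.

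**Figure D4:**
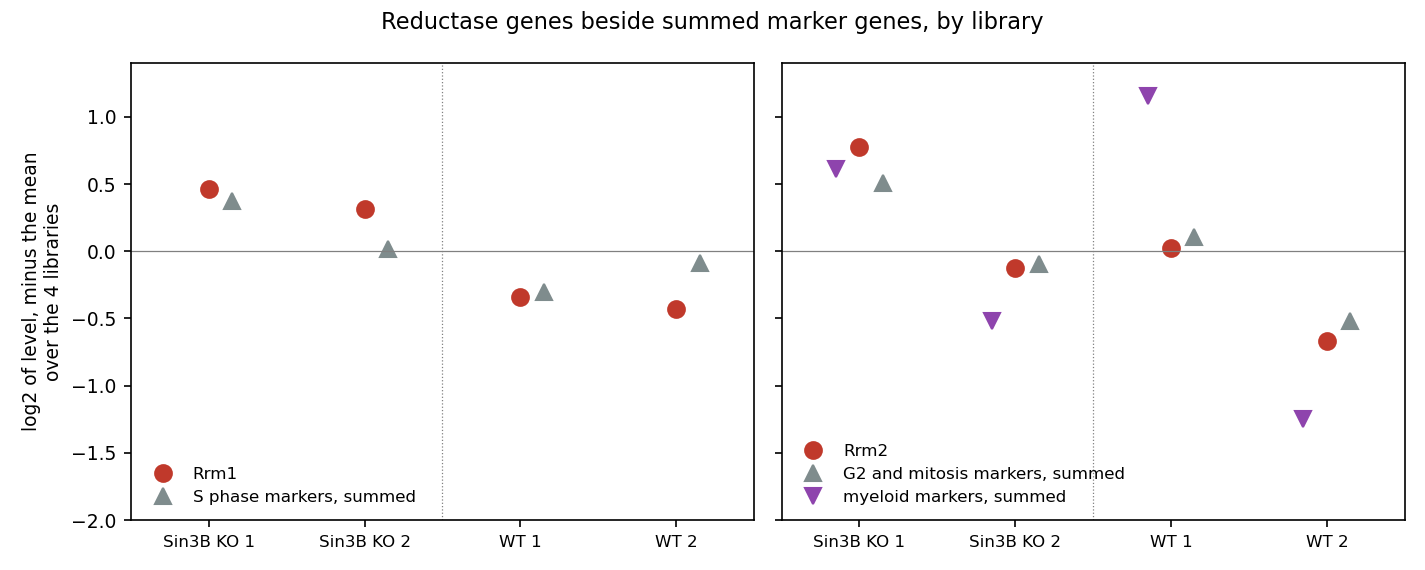
Log2 level minus its mean over the 4 libraries, for Rrm1 beside the 22 summed S phase markers (left) and Rrm2 beside the 20 summed G2 and mitosis markers and the 12 summed myeloid markers (right), by library. Rrm1 and the summed S phase markers both separate the genotypes, while Rrm2 takes the same order of libraries as the G2 and mitosis markers.

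The genes nearest to Rrm1 in profile over the 4 libraries were Uchl4, at a Euclidean distance of 0.06 on the centred log2 scale, Wdr48 at 0.06 and Copz1 at 0.09. Uchl4 encodes a ubiquitin hydrolase close in sequence to Uchl3, with which it may share reads. Wdr48 encodes a cofactor of deubiquitinases and Copz1 a subunit of the coatomer coat. Copz1 was at 8023 and 7369 in Sin3B KO cells, against 4718 and 4700.1 in WT cells, the same pattern as Rrm1. With only 4 libraries many profiles are alike, and 37 of 5775 other genes with a mean of at least 500 lay within 0.2 of Rrm1. Nearest to Rrm2 were Sacm1l, a phosphoinositide phosphatase gene, at 0.17, Birc5, a mitotic survival gene, at 0.19 and Tex9 at 0.21. Birc5 was at 961 and 481 in Sin3B KO cells, against 580.3 and 397 in WT cells, and so shared the high libraries numbered 1. The distance between Rrm1 and Rrm2 was 0.69. By distance Rrm2 ranked 2266th of 5775 genes from Rrm1, and Rrm1 ranked 483rd of 5775 from Rrm2.

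The wider nucleotide pathway was described by 7 lists. Of 81 listed genes 69 were measured. In the KO 53 of 69 had higher fitted levels, where 53.4% of all genes had. The median log2 fold change of the 69 was 0.16, against 0.03 over all genes. The KO lay above WT without overlap in 30 of them (43.5%, against 24.7% of all genes) and below it in 5 (7.25%, against 19.4%). With libraries scaled to the same total of listed reads these counts were 20 (29.0%, against 18.1%) and 7 (10.1%, against 25.4%). On that scaling 45 of 69 were above 0, against 4090 of 9244 genes. Of the 69 genes 0 passed over all genes, and under an unadjusted p of 0.05 were 5 higher and 0 lower in the KO, where 4.97% and 3.95% of all genes were.

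Each of those 5 came from a different list. Umps, which makes UMP and so feeds all pyrimidine deoxynucleotides, was at 6396 and 5544 in Sin3B KO cells, against 3218 and 4024 in WT cells (log2 fold change 0.73, SE 0.20, limma, unadjusted p = 0.0059). Ppat, the committed step of purine synthesis, was at 2386 and 1843 in Sin3B KO cells, against 1385 and 1221 in WT cells (log2 fold change 0.69, SE 0.22). Neither gene overlapped between the genotypes. Mthfd2, the mitochondrial folate enzyme, was at 1064 and 634 in Sin3B KO cells, against 513 and 461 in WT cells (log2 fold change 0.76, SE 0.29). Dck, which phosphorylates deoxycytidine in the salvage route beside Tk1, was at 2109 and 1622 in Sin3B KO cells, against 1401 and 1016 in WT cells (log2 fold change 0.63, SE 0.24). Nudt5, a nucleotide sugar hydrolase, was at 1004 and 754 in Sin3B KO cells, against 595 and 582 in WT cells (log2 fold change 0.56, SE 0.24). The groups did not overlap in these 3 either, which the choice of the 5 by p on the same libraries made likely. The adjusted p of all 5 was 0.548 (limma, Benjamini-Hochberg). In the authors' deposited table the adjusted p of Umps was 0.0904 and those of the other 4 were between 0.235 and 0.522.

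By list, de novo pyrimidine synthesis had 8 of 8 genes above 0 (median log2 fold change 0.21), and removal and cleaning of deoxynucleotides 11 of 12 (0.29). Over all genes 53.4% were above 0 (0.03). The pyrimidine list also holds the uridine-cytidine kinase genes Uck1, Uck2 and Uckl1, which belong to salvage (log2 fold changes 0.07, 0.28 and 0.02). De novo purine synthesis and salvage had 9 of 12 above 0 (0.18), the thymidylate and folate cycle 8 of 11 (0.21) and the salvage enzymes and kinases 10 of 15 (0.11). The electron donor list of the reductase, which also holds genes of mitochondrial proteins, had 4 of 7 above 0 (0.0011). Its most abundant genes were Txn2, mitochondrial thioredoxin, at 5154 and 5184 in Sin3B KO cells, against 3658 and 4765 in WT cells, and Glrx, cytosolic glutaredoxin, at 1198 and 1236, against 1179 and 1103. Neither passed, and the difference in Glrx had a 95% interval of -0.37 to 0.55 on the log2 scale. Txn1, cytosolic thioredoxin, was at 427 and 404 in Sin3B KO cells, against 475 and 362 in WT cells. Its reductase gene Txnrd1 was at 795 and 1160, against 960 and 1437, and both genes overlapped. Gsr was at 409 and 437 in Sin3B KO cells, against 603 and 498 in WT cells. The KO lay above WT without overlap in Txn2 and Glrx and below it in Gsr, where 24.7% and 19.4% of all genes did. Nucleoside transporters had 3 of 4 above 0 (0.14), with Slc29a1, an equilibrative carrier, at 1224 and 1489 in Sin3B KO cells, against 998 and 1333 in WT cells. Slc29a3, its lysosomal relative, was at 809 and 943 in Sin3B KO cells, against 919 and 1019 in WT cells. In both carriers the groups overlapped.

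These counts and medians moved with the scaling and with single libraries. The scaling to the same total also moved the median of all genes, from 0.033 to -0.052, with 4090 of 9244 above 0. With 1 library left out the median of all genes stayed between 0.027 and 0.042. With libraries scaled to the same total, pyrimidine synthesis had 5 of 8 genes above 0 (median log2 fold change 0.12) and purine synthesis 9 of 12 (0.093), and the medians were 0.12 for the thymidylate and folate cycle, 0.025 for salvage and kinases, 0.052 for the transporters and -0.084 for the electron donors. Without WT library 1, pyrimidine synthesis had 5 of 8 above 0 (0.069) and removal and cleaning 9 of 12 (0.10), and the medians were 0.13 for the thymidylate and folate cycle, 0.030 for salvage and kinases, 0.12 for the electron donors and -0.073 for the transporters. Without WT library 2 the medians were 0.39 for the thymidylate and folate cycle and 0.46 for removal and cleaning. Without Sin3B KO library 1 the medians were 0.045 for salvage and kinases and -0.038 for the electron donors, of which 2 of 7 were above 0, and without Sin3B KO library 2 they were 0.17 and 0.071.

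**Figure D5:**
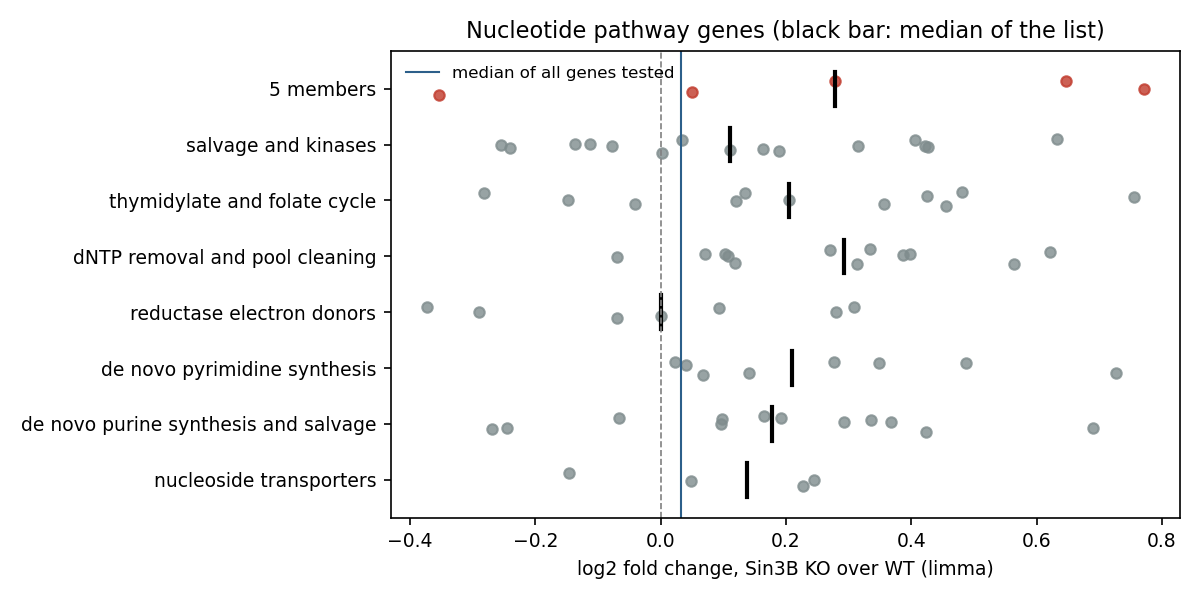
Log2 fold change of Sin3B KO over WT for each measured gene of the 5 enzymes and of 7 pathway lists, with a black bar for the median of a list and a blue line for the median of all genes tested (0.03). List medians run from 0.0011 for electron donors to 0.29 for deoxynucleotide removal and cleaning.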

How the data were processed

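Polyadenylated RNA of 4 libraries was prepared with the SMARTer low-input method, per the labels' protocols. The submitters' processing notes list the mouse build mm9 with Bowtie and DESeq, without versions. Which counter and gene models were used was not given in the sources used here. Deposited by the authors was 1 table of 9796 genes, whose lowest mean is 120.2. For 552 of them no library values are given, and they were left out. For each library the authors deposited a signal, namely read counts after division by that library's size factor, which the values themselves show. Per the file headers, the table also has the authors' log2 fold change and its error, a test score (the fold change over its error), and p-values with and without adjustment. Every library value was a whole multiple of a step (0.961 and 0.892 for Sin3B KO 1 and 2, 1.14 and 0.989 for WT 1 and 2) within 0.01 of a step, and reads are given as value over step.

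limma 3.58.1 in R 4.3.3 was fitted to log2(value + 1) of 9244 genes with a trended prior, and all fold changes refer to this scale. The threshold was 0.05 after Benjamini-Hochberg adjustment. The prior gave 6.62 degrees of freedom beside 2 of the libraries, and a typical (median) 95% interval reached 0.60 to either side. The test was checked on simulated data. Intervals are for the difference between genotype means. They rest on the spread between libraries, drawn towards the trend over all genes.

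Named genes were the 5 members, Sin3b, the pathway genes under an unadjusted p of 0.05 or called in the authors' deposited table (otherwise the 2 most abundant of a list), and the 3 nearest profiles of Rrm1 and Rrm2 among genes of mean 500 or more without predicted names. Members and lists were chosen with earlier results of these data known. Cd34, Flt3, Kit, Tyms.ps and the genes of the closing observations were singled out after their values were seen. So were the other single markers named, the uridine-cytidine kinase genes, Txn1, Txnrd1 and Gsr. Exon lengths matched 9000 genes through Ensembl identifiers. Alternatives were 2 other scalings, pseudocounts of 0.1 and 5, a mean of at least 500, the replicate number as a block, and leaving out each library.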

Additional observations from a re-analysis of the deposited data

How the results depend on the processing

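Over all genes 0 passed with 4 libraries under both other scalings, both pseudocounts and the filter on a mean of at least 500. Leaving out 1 library gave between 0 and 1, 1 each without WT replicate 2 and Sin3B KO replicate 2, and the lone library of a genotype is then assumed to vary like the others. A replicate block (the number in the titles) gave 27 calls (0.292%), and 0 of the 5 members were among them. The block left each fold change and ratio difference as it was, the adjusted p was 0.0812 for Rrm1 and 0.133 for Rrm2 (limma, Benjamini-Hochberg), and the deviations of same-numbered libraries correlated at 0.465 across genes. What the number marks is not stated. With 1 library left out, the log2 fold change ranged from 0.70 to 0.84 for Rrm1, 0.20 to 1.09 for Rrm2, 0.19 to 0.37 for Tyms, -0.97 to 0.26 for Rrm2b and -0.30 to 0.40 for Tk1. The ratio of Rrm1 to Rrm2 ranged from -0.25 (without Sin3B KO replicate 2) to 0.50 and was -0.17 without WT replicate 1, and that of Rrm2 to Rrm2b from 0.44 to 1.56. Rrm2b turned, to 0.26, and Tk1, to -0.30, without WT replicate 1, and Tk1 also with libraries scaled to the same total (-0.035). The cause was not tested. Rrm2b and Tk1 gave no value under the filter. Pathway genes above 0 numbered between 44 and 55 of 69, and 43 of 56 under the filter, in alternatives that were added for this count after seeing the data. Over all genes the counts were between 4090 and 4970 of 9244, and 3613 of 5807 under the filter. The 2 planned count models were not run. The check of recovered reads set for them needs low values, and the listed genes hold too few. Every value was nevertheless a whole multiple of its library's step. The lowest read number behind a member's value was 172, and 2 libraries a group limit precision.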

Other observations

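Ppat, Gart, Pfas, Paics and Atic encode 5 enzymes on the path to inosine monophosphate. They were singled out after their values were seen, and Adsl, of the same path, was not analysed here. All 5 had higher values in both Sin3B KO libraries than in either WT library, and 4 of 5 still did with libraries scaled to the same total, where Atic overlapped. Of all genes 24.7% did so as deposited and 18.1% with equal totals. Prps1, which supplies the path, had a log2 fold change of -0.07. Gart was at 3251 and 3813 in Sin3B KO cells, against 2375 and 2905 in WT cells, and Paics at 6378 and 5442, against 4443 and 4899.9. The log2 fold changes of the 5 enzymes lay between 0.19 and 0.69 and were above 0 in all 4 fits with a library left out, but 0 passed (limma, smallest Benjamini-Hochberg adjusted p = 0.548). Downstream, Impdh2, which commits inosine monophosphate to guanine nucleotides, was at 539 and 490.5 in Sin3B KO cells, against 609 and 632 in WT cells, and Impdh1 at 672 and 468, against 743 and 594.

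The nucleoside diphosphate kinases, which make the triphosphates after the reductase, went both ways. Nme1 was at 4165 and 3630.4 in Sin3B KO cells, against 2524 and 3312 in WT cells. The mitochondrial Nme4 was at 1131 and 1074 in Sin3B KO cells, against 1269 and 1362 in WT cells. Neither passed (limma, log2 fold changes 0.43 and -0.25), and both kept their sign under both other scalings and with any library left out. The kinases were also singled out after their values were seen.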
